A study of Homo sapiens with 2 samples.

Results

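MHC class I antigen presentation was followed through 9 genes: the class I heavy chains HLA-B, HLA-C and HLA-E, their shared light chain B2M, the peptide transporter subunits TAP1 and TAP2, the loading factor TAPBP, and the immunoproteasome subunits PSMB8 and PSMB9. They were chosen by symbol from both deposited tables, through the gene identifier, and all 9 of 9 were found among 19052 listed genes. The cells were TSU-Pr1, a line of human bladder carcinoma, named K12 in some labels; by the series title it expresses KLF5 stably, a feature of both groups. One group was transfected with the control siRNA siCtrl and the other with siCINP, directed at CINP, and both were harvested at 48 h. Each group is a single library, so replicates could not be compared and p-values are left out. Each interval sets one library against the other and reflects counting error alone, so it says nothing of how cultures of a condition vary. The labels do not state whether the line is 1 clone, how the KLF5 construct is driven or which siRNA sequences were used.

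Class I molecules carry short peptides from inside the cell to its surface, where cytotoxic T cells and natural killer cells read them. Proteasomes cut proteins into peptides, the TAP1-TAP2 transporter moves these into the endoplasmic reticulum, and TAPBP (tapasin) bridges the transporter to empty heavy chains, which leave the compartment only once paired with B2M and loaded. Interferons raise most of these genes through STAT and IRF factors, NLRC5 with the RFX factors acts on the heavy chain and B2M promoters, and tumours often lose part of the pathway.

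The siCtrl library summed to 10365307 expected counts (estimated reads per gene) and the siCINP library to 10314204. CINP, the siRNA target, was at 203 reads in the siCtrl library and 53 in the siCINP library, a log2 ratio of siCINP over siCtrl of -2.01 (95% interval -2.47 to -1.56). KLF5 was at 4013 and 4077 (-0.05, -0.11 to 0.02). KRT8 and KRT18, keratins of simple epithelium, stood at 1552 and 1772 FPKM in siCtrl (fragments per kilobase of transcript, scaled for depth), while 3 of 12 urothelial markers, among them UPK2 and KRT20, were in neither table and UPK1A, UPK1B, UPK3A and GATA3 had at most 19 reads. KRT8 and KRT18 are not particular to bladder, so these values show epithelial cells, and the bladder origin rests on the label alone. TP63, another marker of that list, had 8 reads in siCtrl and 16 in siCINP. Of the other keratins in that list, KRT7 had 154 reads in siCtrl and 297 in siCINP and KRT19 20 and 44, and the part of this difference in the results was not tested. Among leukocyte markers CD3D, CD3E and MS4A1 were in neither table, and PTPRC, the pan-leukocyte marker, had 8 and 6 reads. The summed reads of that list were 216 and 240, mostly LYZ and CD68. The fibroblast list summed to 161 and 187 reads, mostly COL1A1 (147 and 168). The endothelial list summed to 1873 and 1619, mostly ENG, with VWF at 3 reads in each library. The part of these lists in the results was not tested.

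All 9 genes were expressed in both libraries, over a range from 4.88 to 285.51 FPKM in siCtrl, and their order was the same in siCINP. B2M was the highest, at 285.51 FPKM in siCtrl (exact 95% Poisson interval 275 to 296) and 304.09 in siCINP (293 to 315), above 98.65% of compared genes in siCtrl. HLA-E followed at 62.25 and 59.76 FPKM, and TAPBP at 57.78 and 57.91. HLA-C stood at 43.78 and 43.73 FPKM, which placed it below TAPBP in both libraries. TAP2 had 23.88 and 30.73 FPKM, HLA-B 13.36 and 15.49, and TAP1 10.68 and 11.91. The immunoproteasome subunits were the lowest, PSMB8 with 9.44 and 10.53 FPKM and PSMB9 with 4.88 and 7.83. Neighbours in this order differed beyond counting error in 7 of 8 pairs in siCtrl and 6 of 8 in siCINP. TAP1 and PSMB8 did not separate in either library (FPKM ratio 1.13 in siCtrl, interval 0.916 to 1.404), nor HLA-E and TAPBP in siCINP (1.03, 0.968 to 1.10).

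**Figure D1:**
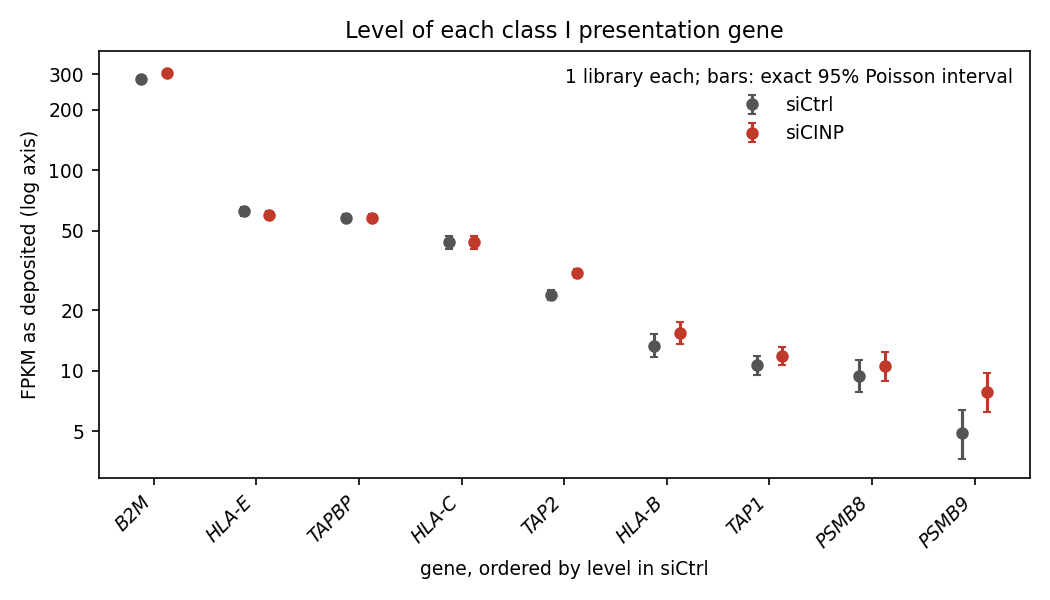
Deposited FPKM (log axis) of the 9 genes in the siCtrl and the siCINP library, with exact 95% Poisson intervals of the read count as bars. B2M lies near 300, the heavy chains and TAPBP between 13.36 and 62.25, and PSMB9 lowest, at 4.88 in siCtrl and 7.83 in siCINP.

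The differences between the libraries were small. In bulk RNA, fewer cells expressing a gene and less of its RNA per cell cannot be told apart. None of the 9 genes was at least 2-fold higher or lower in siCINP. Of all compared genes, 1.69% were higher by that rule and 1.41% lower, each with an interval that excluded 0. At shares this low, none among 9 genes is close to the background. Compared genes are the 13076 that reached 20 reads in either library. The 221 higher and 184 lower genes became 296 and 149 with total-count scaling. The interval of the log2 ratio lay above 0 for 2 of the 9, TAP2 and PSMB9, against 18.6% of all compared genes, and below 0 for 2, HLA-E and TAPBP, against 23.1%. These shares are close to the background. The log2 ratios ran from -0.13 to 0.61 with a median of 0.13, beside a median of -0.01 over all compared genes, whose quartiles were -0.21 and 0.20. TAP2 and PSMB9 kept intervals above 0 with each of 3 other scalings, whereas TAPBP kept an interval below 0 with none of the 3 and HLA-E with 1, and B2M had an interval above 0 with total-count scaling.

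**Figure D2:**
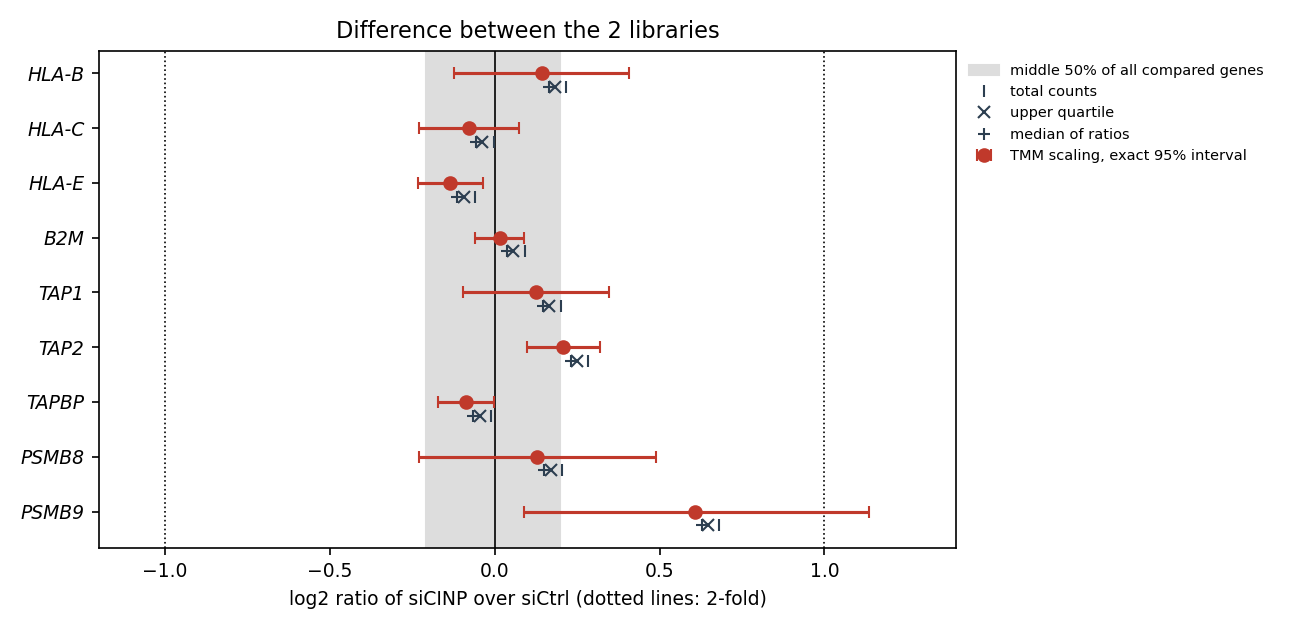
Log2 ratio of siCINP over siCtrl for each gene with TMM scaling and its exact 95% interval, and the same ratio with 3 other scalings just below. The grey band holds the middle 50% of all compared genes (-0.21 to 0.20), and of the 9 points only those of PSMB9 (0.61) and TAP2 (0.21) lie outside it.

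The heavy chains bind the peptide, and class I promoters can carry elements through which interferon, NF-kappa B and the NLRC5-RFX complex act. The elements differ between genes, and neither kappa B form searched was in the HLA-C window. The HLA-B and HLA-C windows, from 250 bases before to 50 after the RefSeq transcript start, are shown because these genes are close paralogs (HLA-B chr6:31357130-31357429, HLA-C chr6:31272043-31272342, both GRCh38.p14, minus strand, written 5′ to 3′ along the gene). These windows share 269 of 296 aligned bases, with 8 gap positions. Most of each window lies before the start, outside the transcript, so this identity does not show how reads are divided between the genes. Identity of the transcripts was not computed. The B2M window (chr15:44711267-44711566, plus strand) is set beside the HLA-B and HLA-C windows for the light chain. Capitals mark matches on either strand to the IRF cores GAAANNGAA and AANNGAAA, which overlap each other, to the X2 box core TGACGC and to the kappa B forms GGGATTCC and GGGACTTTC.
HLA-B: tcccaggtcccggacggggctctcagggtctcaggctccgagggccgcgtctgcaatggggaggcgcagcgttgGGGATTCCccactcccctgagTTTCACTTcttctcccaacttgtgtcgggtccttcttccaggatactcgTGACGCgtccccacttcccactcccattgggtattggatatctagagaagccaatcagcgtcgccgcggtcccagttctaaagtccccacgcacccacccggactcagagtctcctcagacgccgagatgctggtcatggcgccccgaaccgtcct
HLA-C: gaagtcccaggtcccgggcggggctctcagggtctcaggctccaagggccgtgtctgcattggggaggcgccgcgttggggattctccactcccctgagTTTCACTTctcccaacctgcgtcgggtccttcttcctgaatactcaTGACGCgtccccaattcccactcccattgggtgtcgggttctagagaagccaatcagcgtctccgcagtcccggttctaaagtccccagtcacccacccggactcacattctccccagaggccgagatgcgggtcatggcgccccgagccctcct
B2M: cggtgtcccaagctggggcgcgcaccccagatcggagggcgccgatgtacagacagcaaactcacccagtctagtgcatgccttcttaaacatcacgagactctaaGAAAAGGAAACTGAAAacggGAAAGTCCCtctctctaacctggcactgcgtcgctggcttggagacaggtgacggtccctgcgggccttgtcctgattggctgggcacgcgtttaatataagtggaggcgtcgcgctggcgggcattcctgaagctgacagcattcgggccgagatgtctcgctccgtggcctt

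HLA-B, a classical heavy chain (gene 3106), had 223.49 expected counts in siCtrl and 257.71 in siCINP (log2 ratio 0.14, interval -0.12 to 0.41). HLA-C, a classical chain that is also a main ligand of killer-cell receptors (gene 3107), had 714.71 and 710.27 (-0.08, -0.23 to 0.07). Neither difference was detectable at this depth. HLA-E, a non-classical chain that presents leader peptides of other class I chains to NKG2A-bearing cells (gene 3133), had 1732.97 and 1655.35 expected counts. Its log2 ratio was -0.13 (-0.23 to -0.04), with an interval that included 0 under total-count scaling (-0.06, -0.16 to 0.04) and upper quartile scaling (-0.09, -0.19 to 0.0045). Counts of all 3 chains were fractional, as arises where reads are divided between related genes, so these values are uncertain. Fractional counts were common: only 63.33% of genes listed in siCtrl and 63.15% in siCINP had whole counts. Summed, the 3 chains had 2671 reads in siCtrl and 2623 in siCINP (-0.09, -0.17 to -0.02), but the interval included 0 with total-count (-0.10 to 0.06), upper quartile (-0.13 to 0.03) and DESeq2 scaling (-0.15 to 0.0058). HLA-B and HLA-C together had 938 and 968 (-0.02, -0.15 to 0.11). Other rows that could share reads with them were not added to these sums.

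B2M, the invariant light chain without which heavy chains do not reach the surface (gene 567), had whole counts of 2859 and 3030 reads. Its log2 ratio was 0.02 (-0.06 to 0.09), the narrowest interval of the 9 genes. Ratios of 2 genes within a library do not depend on how the libraries are scaled. By FPKM, HLA-E stood at 0.218 of B2M in siCtrl (0.205 to 0.232) and 0.197 in siCINP (0.185 to 0.209), and the ratio of their reads in siCINP was 0.901 times that in siCtrl (exact conditional interval 0.827 to 0.982). HLA-E was thus lower relative to B2M by more than counting error. Its counts were fractional, though, and that interval does not cover how reads were divided between related genes. HLA-C stood at 0.153 and 0.144 of B2M and HLA-B at 0.0468 and 0.0509, with read ratios of 0.937 (0.833 to 1.05) and 1.09 (0.902 to 1.32) between the libraries, both including 1. HLA-B stood at 0.305 of HLA-C in siCtrl and 0.354 in siCINP, a change of 1.17 times in reads with an interval of 0.942 to 1.44.

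TAP1 and TAP2 form the transporter as a pair of ATP-binding half-subunits, and TAP1 faces PSMB9 head to head across a short intergenic stretch known as a bidirectional promoter. In the RefSeq table the PSMB9 start lies 488 bases from the farther upstream of 2 TAP1 starts. The windows of TAP1 (chr6:32853655-32853954, minus strand), PSMB9 (chr6:32853942-32854241, plus strand) and TAP2 (chr6:32838690-32838989, minus strand), all GRCh38.p14, are shown because PSMB9 and TAP2 are the 2 genes whose intervals lay above 0. Capitals mark the same motifs as above, each window written 5′ to 3′ along its own gene.
TAP1: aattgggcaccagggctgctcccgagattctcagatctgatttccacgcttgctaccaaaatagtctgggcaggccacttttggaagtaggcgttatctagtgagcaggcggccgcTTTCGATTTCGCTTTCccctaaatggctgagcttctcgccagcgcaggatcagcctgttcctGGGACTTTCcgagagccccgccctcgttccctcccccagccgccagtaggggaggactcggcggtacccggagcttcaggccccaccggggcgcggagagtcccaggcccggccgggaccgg
PSMB9: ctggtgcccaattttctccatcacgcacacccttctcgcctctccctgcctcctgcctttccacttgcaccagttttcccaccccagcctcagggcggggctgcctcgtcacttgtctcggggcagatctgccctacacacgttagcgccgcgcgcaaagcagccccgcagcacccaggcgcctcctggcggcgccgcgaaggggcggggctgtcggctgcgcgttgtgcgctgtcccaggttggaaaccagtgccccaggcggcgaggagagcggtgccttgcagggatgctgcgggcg
TAP2: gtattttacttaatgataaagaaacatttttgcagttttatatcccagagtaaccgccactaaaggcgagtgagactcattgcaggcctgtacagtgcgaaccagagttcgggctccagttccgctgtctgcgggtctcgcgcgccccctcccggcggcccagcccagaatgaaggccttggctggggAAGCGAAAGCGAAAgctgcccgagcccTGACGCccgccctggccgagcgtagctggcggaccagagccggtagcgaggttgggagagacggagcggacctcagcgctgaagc

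TAP1 (gene 6890) had 321.16 expected counts in siCtrl and 366.63 in siCINP, and the interval of its log2 ratio of 0.13 ran from -0.09 to 0.35. TAP2 (gene 6891) had 1229.84 and 1490.37 expected counts, 1.16-fold higher in siCINP (0.21, 0.10 to 0.32). About 24.0% of compared genes had a log2 ratio as high as that of TAP2. The deposited length of TAP2, which lists 3 transcripts, was 4925.24 bases in siCtrl and 4663.58 in siCINP, and FPKM, which divides by that length, gave a log2 ratio of 0.36. Counts were fractional for both genes. Summed, they had 1551 and 1857 reads (0.19, 0.09 to 0.29). TAP2 stood at 2.24 times TAP1 by FPKM in siCtrl and 2.58 times in siCINP, but the ratio of their reads moved by only 1.06 times (0.893 to 1.26), so a separate behaviour of the subunits was not detectable.

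TAPBP, the tapasin bridge of the loading complex (gene 6892), had 2235.69 expected counts in siCtrl and 2207.76 in siCINP. Its log2 ratio was -0.09 with an interval of -0.17 to just under 0 (-0.00077) by TMM, and its deposited FPKM of 57.78 and 57.91 gave a log2 ratio of 0.00324. The ratio was below 0 with all 4 scalings, at -0.01 with total counts, and the interval included 0 with the other 3. FPKM also divides by the deposited length, 3709.54 bases in siCtrl and 3673.53 in siCINP. Against TAP1, its reads in siCINP were 0.864 times the ratio in siCtrl, with an interval of 0.733 to 1.02.

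PSMB8 and PSMB9 replace the constitutive catalytic subunits PSMB5 and PSMB6 in the immunoproteasome, whose cleavage favours peptide ends that class I molecules bind, and PSMB10 likewise replaces PSMB7. PSMB8 (gene 5696) was at 123 reads in the control library and 141 after siCINP (log2 ratio 0.13, -0.23 to 0.49), so no difference was detectable. PSMB9 (gene 5698) had 52 and 83 reads, the highest of the 9 ratios at 1.52-fold (0.61, 0.09 to 1.14). About 5.9% of compared genes had a log2 ratio as high. Both had whole counts. PSMB8-AS1, a noncoding RNA on the other strand that overlaps PSMB8, had 58 and 95 reads (0.64, 0.16 to 1.14). The labels name no strand setting, so reads of PSMB8 and PSMB8-AS1 may not be told apart. Their sum was 181 and 236 reads (0.31, 0.03 to 0.60).

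The induced subunits were a small share of their constitutive counterparts in both libraries. PSMB8 stood at 0.110 of PSMB5 by FPKM in siCtrl (0.0903 to 0.132) and 0.118 in siCINP, and PSMB10 at 0.129 and 0.130 of PSMB7. PSMB9 stood at 0.0265 of PSMB6 in siCtrl (0.0197 to 0.0349) and 0.0431 in siCINP (0.0341 to 0.0537). Among these 3 pairs only the last moved beyond counting error: the ratio of PSMB9 to PSMB6 reads was 1.62 times higher in siCINP (1.13 to 2.36), while PSMB8 to PSMB5 was at 1.12 (0.864 to 1.46) and PSMB10 to PSMB7 at 1.005 (0.810 to 1.25). Set against its head-to-head neighbour, PSMB9 to TAP1 was at 1.4 (0.942 to 2.08), and PSMB9 to PSMB8 at 1.39 (0.894 to 2.18), so a difference of PSMB9 from either was not detectable. Of 12 such pairs computed, 2 had an interval that excluded 1, PSMB9 to PSMB6 and HLA-E to B2M, with no adjustment for their number.

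**Figure D3:**
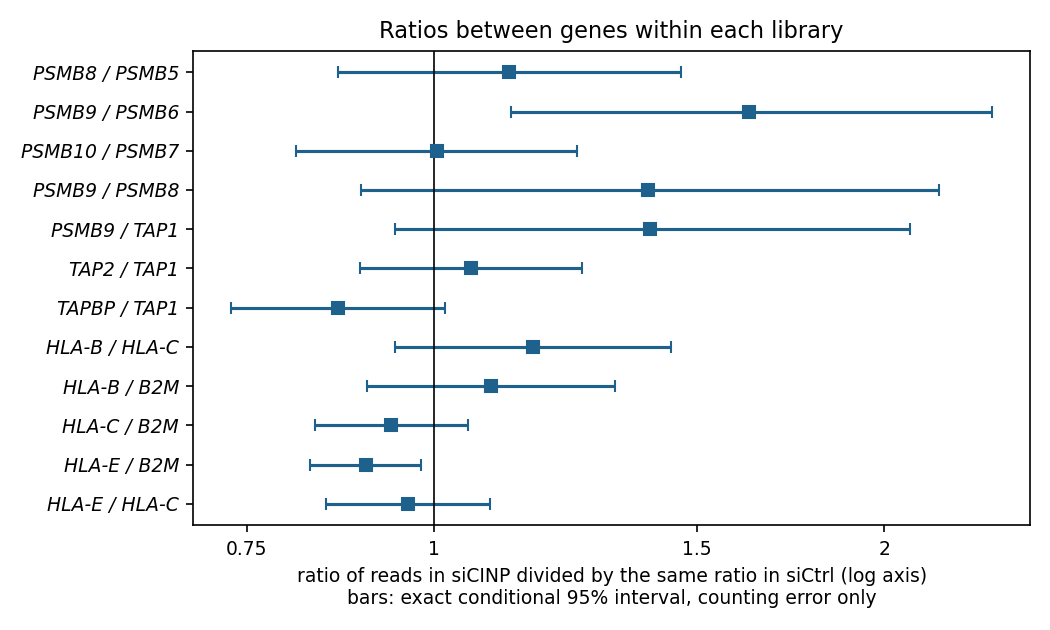
Ratio of the reads of 2 genes in siCINP divided by the same ratio in siCtrl (log axis), with exact conditional 95% intervals, for 12 pairs. The PSMB9 to PSMB6 bar lies above 1 and the HLA-E to B2M bar below it, and the other 10 cross 1.

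The promoter table held 8 of the 9 genes, all but HLA-E. The longer IRF core GAAANNGAA was in a window of 5 of the 8 genes (B2M, TAP1, TAP2, TAPBP and PSMB8), compared with 9.86% of 27305 genes in the table. The shorter core AANNGAAA was also in HLA-B and HLA-C, 7 of the 8, against 26.7%. PSMB9 had neither in its own window; the paired TAP1 window has both. The X2 core TGACGC was in HLA-B, HLA-C and TAP2 (3 of 8, against 10.9%), and the full form TGACGTCA in 0 of 8 (2.25%). The Y box core CCAAT was in 5 of 8, HLA-B, HLA-C, B2M, TAP1 and PSMB9, against 39.7%. The match in TAP1 and that in PSMB9 are the same bases, where the 2 windows overlap. GGGATTCC was in HLA-B (1 of 8, against 1.36%) and GGGACTTTC in B2M and TAP1 (2 of 8, against 0.458%). The gamma-activated site TTCNNNGAA was in PSMB8 and in the window of the second TAP1 start, not printed here (2 of 8, against 9.38%). These matches describe the letters of the windows and are no evidence of binding.

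**Figure D4:**
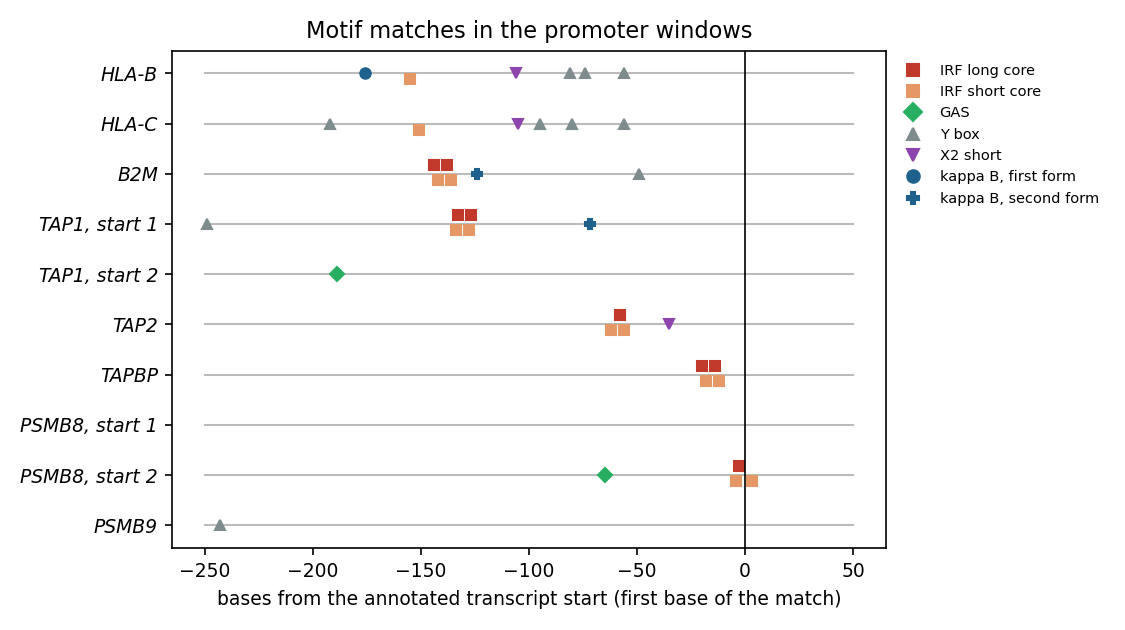
Position of motif matches in the promoter windows, in bases from the annotated transcript start (0), by gene and start, with both strands searched. IRF cores lie between -155 and 3 in the genes that have them, and the PSMB9 window holds a Y box match alone. GAS is the gamma-activated site, the first kappa B form is the one in HLA-B and the second the one in B2M and TAP1.

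In the 3′ UTRs (the longest among protein-coding transcripts of each gene in GENCODE 29), none of the 9 genes held TGCAAGA or GCAAGAA, heptamers singled out on earlier results of these data. The share over the 11320 compared genes with a 3′ UTR matched by symbol was 18.4%. None held TCGGAGA or CGGAGAA either, against 4.22%. Among only 9 genes, none is no clear departure from either share. Their 3′ UTRs ran from 53 bases (PSMB9) to 3491 (TAP2), and a short one has less room for a match. In the pathway lists described next, only compared genes with a 3′ UTR matched by symbol were counted. The first pair was in 1 of 11 loading genes, 1 of 13 proteasome genes, 3 of 9 peptidases and 3 of 10 other chains. It was also in 4 of 19 regulators, 2 of 13 interferon genes and 1 of 3 surface turnover genes. The MARCHF genes of the surface turnover list, among them MARCHF4, had no match by symbol and were not searched. Genes named in the text from these lists, with reads, that held the first pair were CANX, TPP1, THOP1, HLA-F, MICB, ULBP1, IFNAR1, SPPL2A and CD274. The endothelial marker ENG held it too. IFNAR1 and ENG also held a heptamer of the second pair.

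Larger ratios than those of the 9 genes were found elsewhere in the pathway, where 18.6% and 23.1% above and below 0 remain the background for each list. Of 11 other loading and trimming genes, 1 had an interval above 0 and 5 below (median -0.15). GANAB, the glucosidase II subunit that trims glycans before chaperone binding, went from 2880 reads in the control library to 7147 (log2 ratio 1.24, 1.18 to 1.31). CANX (calnexin), which holds free heavy chains, was at -0.47 (12584 and 9515 reads), the chaperone HSPA5 at -0.41 with fractional counts, and CALR (calreticulin), which joins the loading complex, at -0.28 (7764 and 6725). ERAP1, which trims peptides inside the endoplasmic reticulum, was at 0.02 (1030 and 1093 reads, -0.11 to 0.14).

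Proteasome core beta subunits and activators lay in a narrow band. Of 13, the interval was above 0 in 1 and below in 2 (median -0.07). The constitutive subunits PSMB5, PSMB6 and PSMB7 were at -0.04, -0.09 and -0.16, and PSMB10 had 202 and 191 reads (-0.15, -0.44 to 0.14). PSMB2, a core subunit without catalytic activity, was at 0.12 with fractional counts, PSMB7 at an interval of -0.26 to -0.05, and the activator PSME4 at -0.16. PSME1 and PSME2, the interferon-inducible activator PA28, were at 0.05 and 0.04, each with an interval that included 0. In the list of peptidases, which also holds the lysosomal TPP1 and the membrane-bound LNPEP, 4 of 9 intervals lay above 0 and 3 below (median -0.07). Without those 2, 4 of 7 lay above 0 and 1 below (median 0.22), a subset chosen after the values were seen. LAP3, an interferon-inducible leucine aminopeptidase, had 615 and 929 reads (0.53), THOP1, which degrades peptides before transport, 858 and 1198 (0.41), TPP1 was at -0.33 and LNPEP at -0.38.

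Among 17 other class I and class I-like genes, which include the pseudogenes HLA-H, HLA-J and HLA-L, 12 had enough reads. Of these, 0 intervals lay above 0 and 4 below (median -0.18). These 4 were among 6 compared ligands of NKG2D, a receptor of natural killer cells, a grouping made after the values were seen. The other 2 had intervals that included 0, ULBP2 with 42 and 32 reads (-0.46, -1.17 to 0.24) and RAET1E with 22 and 32 (0.47, -0.36 to 1.33). ULBP3 had 166 reads in siCtrl and 75 in siCINP (-1.21, -1.63 to -0.81), MICB 868 and 507 (-0.84, -1.005 to -0.68), ULBP1 28 and 9 (-1.71, -2.97 to -0.58) and MICA 714 and 602 (-0.31, -0.47 to -0.16). Counts of all 6 were fractional. HLA-F, a non-classical chain, had 40 and 36 reads and HLA-G 5 and 4.

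Regulators of the class I promoters split evenly, with 5 of 19 intervals above 0 and 5 below (median 0.04). IRF9, the DNA-binding subunit of the type I interferon complex, had 283 reads in siCtrl and 587 in siCINP (0.98, 0.78 to 1.19), and STAT3 was at 0.56 with fractional counts. IRF2, which can repress interferon genes, had 306 and 201 reads (-0.67, -0.94 to -0.41), and NFYC, a Y box factor, was at -0.51 with fractional counts. IRF1, an interferon-induced factor known to act on the TAP1-PSMB9 promoter, had 404 and 456 reads (0.11, -0.09 to 0.30). NLRC5, the class I transactivator, had 35 and 22 reads (-0.74, -1.58 to 0.07), 0.50 and 0.31 FPKM, so a difference was not detectable.

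The listed interferon ligands were at or near 0 in both libraries. IFNB1, IFNL1, IFNL3, IFNK and IFNE were in neither table, and IFNG and IFNL2 had 0 reads in siCtrl and 1 each in siCINP. Ligands outside the list, such as the IFNA genes, were not looked up. A count of 0 allows up to 3 reads, 0.289 CPM (reads scaled to library size) in siCtrl and 0.291 in siCINP. Of the 13 compared receptors, kinases and feedback genes, 1 interval lay above 0 and 5 below (median -0.13). SOCS1, a feedback inhibitor of JAK kinases, had 34 and 13 reads (-1.46, -2.50 to -0.50), IFNAR1, a type I interferon receptor chain, 1062 and 741 (-0.59), and SOCS3 205 and 304 (0.50). Counts of IFNAR1 were fractional. IFNGR2 was at -0.23 with fractional counts.

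Class II presentation was nearly absent, with 35 reads in siCtrl and 55 in siCINP over 14 genes, 7 of them in neither table. The only one compared, CTSS, a lysosomal protease, had 15 and 24 reads (0.61, -0.38 to 1.65), and CIITA, the class II transactivator, had 7 and 8. The list of class I surface turnover holds 8 genes, among them CD274 and CMTM6, which concern PD-L1 and not class I. Of the 8, 6 were compared, with 2 intervals above 0 and 2 below (median -0.06). MARCHF4, a ubiquitin ligase that can remove class I from the surface, had 571 and 973 reads (0.70, 0.55 to 0.85) with fractional counts. CMTM6, which stabilises PD-L1, had 1246 and 1620 (0.31), SPPL2A was at -0.41 and HM13, the signal peptide peptidase that releases HLA-E-binding leader peptides, at -0.15 with fractional counts. CD274, which encodes PD-L1, had 7 and 6 reads.

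**Figure D5:**
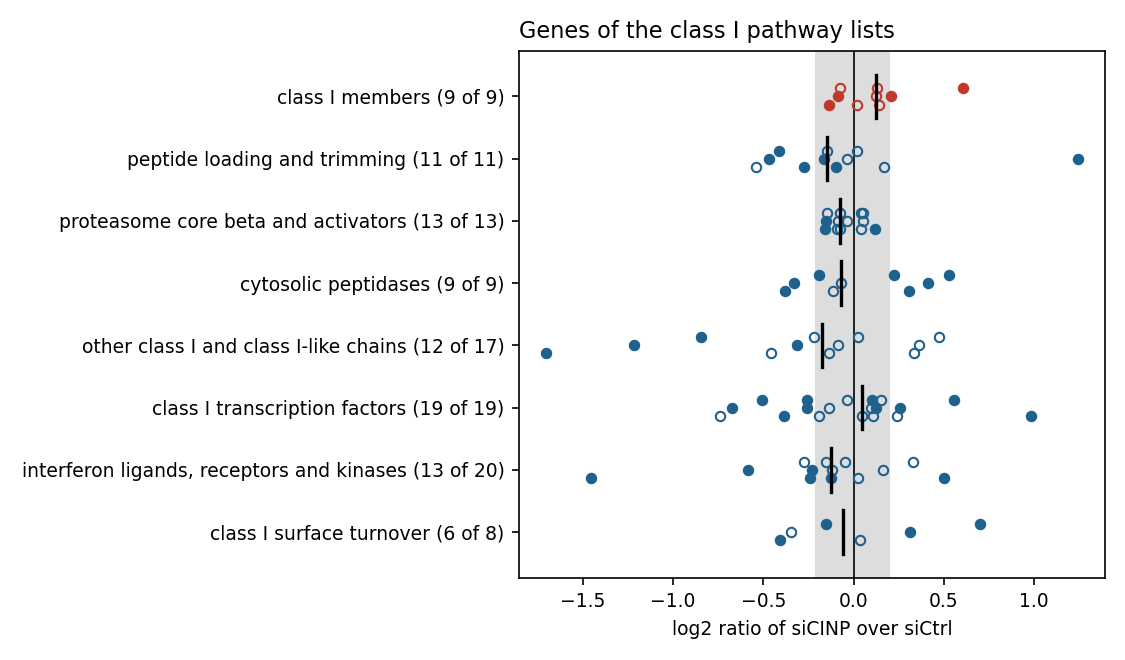
Log2 ratio of siCINP over siCtrl for the compared genes of each list (compared of listed in brackets), with filled points where the exact 95% interval excludes 0, a black bar at the list median and the middle 50% of all compared genes in grey. The 9 class I genes, in red, span -0.13 to 0.61, while GANAB reaches 1.24 and ULBP1 -1.71 in neighbouring lists.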

How the data were processed

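Total RNA of TSU-Pr1 cells was sequenced, 1 library per group. The authors deposited, per the file headers, a length, an expected count (estimated reads, not normalised) and an FPKM value (scaled for length and depth) for each gene. Bowtie2, HISAT and hg19 are listed, per the submitters' processing notes, without versions. For the counting tool, annotation and strand setting the labels name nothing.

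Of 19052 gene identifiers, 18971 matched a symbol in the RefSeq table of GRCh38.p14, which served for names and promoter windows, and GENCODE 29 gave 3′ UTRs. Expected counts were rounded and scaled by TMM (edgeR 4.0.16, R 4.3.3), with factors of 0.974 and 1.03. Each log2 ratio carries a 95% interval from the exact Clopper-Pearson limits of siCINP's share of both libraries' reads (scipy 1.17.1). Where a library had no read, 3 reads replaced it. Counts not whole within 0.005 are called fractional. Compared genes reached 20 reads in either library. Ratios between genes have exact conditional odds-ratio intervals. The totals were 10365307 and 10314204 expected counts, and an interval spans 0.97 to either side at 20 reads in each library. Reads without molecular identifiers are not independent molecules, so intervals cover counting error only. The intervals and the 2-fold rule were tested on simulated data. Those data held counting error alone, so they do not test shared reads or variation between cultures.

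Members and lists were chosen with earlier results of these data known. Named are the 9 members, CINP, KLF5, the PSMB5, PSMB6, PSMB7 and PSMB10 counterparts, listed interferon genes, NLRC5, IRF1, and up to 4 genes per list whose interval end nearest 0 lies farthest from it. Others were named after their values were seen: PSMB8-AS1, ERAP1, PSME1, PSME2, HLA-F, HLA-G, ULBP2, RAET1E, CIITA, CTSS, CD274 and the marker genes. A few listed genes are not reported here. Protein sequences were not used here. Class I rows outside these lists were not analysed here. Alternatives were scaling by totals, by the upper quartile and by size factors of DESeq2 1.42.0, FPKM with pseudocounts of 0.1 and 1, other minimums of reads, other size rules and whole counts only.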

Additional observations from a re-analysis of the deposited data

How the results depend on the processing

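Replacing TMM by total-count scaling added 0.08 to every log2 ratio and brought B2M to 0.09. The median of the 9 genes lay between 0.15 and 0.20 with the other 3 scalings. Of 45 alternative values for single members, 38 stayed inside the counting interval, 5 moved outside it (B2M and TAP2) and TAPBP changed sign by FPKM, to 0.00324 and 0.00319 with pseudocounts of 0.1 and 1. The higher and lower gene counts of 221 and 184 became 296 and 149 with total counts, 83 and 72 by FPKM with a pseudocount of 1 and no interval, 62 and 98 with a minimum of 100 reads, 662 and 637 with a 1.5-fold rule, 60 and 73 with the interval wholly beyond 2-fold and 119 and 95 with whole counts only, and the higher count was 339 with no minimum. The cause was not tested beyond the fewer or more genes each rule admits. The median of the peptidase list was 0.0751 with whole counts only and 0.22 without TPP1 and LNPEP, an alternative chosen after seeing the data. The other 55 alternative list medians stayed inside the interval of their middle genes. The interval of the summed heavy chains included 0 with all 3 other scalings. The 18 member levels stayed inside their intervals when recomputed from counts and lengths. No paired analysis was possible because each group had 1 library, and leaving one out was not possible for the same reason. Depth limits PSMB9, PSMB8 and HLA-B most, the members with the fewest reads.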
